A study of Mus musculus with 8 samples.

Results

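The chemokines and their receptors, taken as the array symbols that begin with *Ccl*, *Cxcl*, *Ccr*, *Cxcr*, *Cx3c* or *Ccrl* together with *Xcl1*, *Xcr1* and *Ccbp2*, were represented by 70 of 25697 probes and by 55 of 18120 gene symbols. They were measured in glomerular RNA of 4 *Cd151*+/+ and 4 *Cd151*-/- mice, all male, 3 weeks old and of the FVB/N strain, with 1 mouse per Illumina MouseRef-8 v1.1 array. *Cd151* encodes a tetraspanin that associates with laminin-binding integrins, and the *Cd151*-/- mice carry a homozygous deletion that is not limited to 1 cell type. The labels name no treatment in either genotype. The glomeruli were collected with magnetic beads perfused through the heart and, by the methods, washed until nearly pure, and each isolate mixed the RNA of podocytes, endothelium, mesangium and any other cells that remained. Lower RNA per cell and fewer cells of a type cannot be told apart in such isolates.

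Chemokines are small secreted or membrane-anchored proteins that guide leukocytes along gradients by binding receptors coupled to inhibitory G proteins. Some are made constantly and position cells in healthy tissue, whereas others are induced by interferon or by NF-kappaB signalling, and a group of atypical receptors takes ligands up without coupling to G proteins. In injured glomeruli, podocytes, mesangial cells and endothelium can all produce chemokines, and monocytes, T cells and neutrophils carry most of the receptors.

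Many inflammatory chemokines are switched on through motifs close to their start sites, and the windows of 3 CXC chemokines that every array detected are shown for that reason. *Cxcl13* and *Cxcl10* had the highest differences between the genotypes, and *Cxcl1* is a common NF-kappaB target. Each window holds the 250 bases before the start of the gene in RefSeq on mouse assembly GRCm38.p6, written 5′ to 3′ along the strand of the gene. Capitals mark matches on either strand to an interferon-response type motif (GAAA, any 2 bases and GAAA) or to an NF-kappaB type motif (GGGA, any 2 bases and TTCC). The windows lie at chr5:92348890-92349139 (minus strand) for *Cxcl10*, at chr5:90890995-90891244 (plus strand) for *Cxcl1* and at chr5:95956689-95956938 (plus strand) for *Cxcl13*.
Cxcl10: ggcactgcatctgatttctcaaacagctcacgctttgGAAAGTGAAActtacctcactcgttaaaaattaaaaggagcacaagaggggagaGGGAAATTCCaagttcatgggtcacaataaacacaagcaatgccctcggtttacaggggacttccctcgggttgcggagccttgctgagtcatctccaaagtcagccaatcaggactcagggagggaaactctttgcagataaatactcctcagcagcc
Cxcl1: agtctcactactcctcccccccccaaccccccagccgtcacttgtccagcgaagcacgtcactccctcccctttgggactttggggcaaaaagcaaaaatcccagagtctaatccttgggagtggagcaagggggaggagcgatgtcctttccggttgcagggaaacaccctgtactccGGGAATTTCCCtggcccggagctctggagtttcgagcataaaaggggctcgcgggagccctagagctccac
Cxcl13: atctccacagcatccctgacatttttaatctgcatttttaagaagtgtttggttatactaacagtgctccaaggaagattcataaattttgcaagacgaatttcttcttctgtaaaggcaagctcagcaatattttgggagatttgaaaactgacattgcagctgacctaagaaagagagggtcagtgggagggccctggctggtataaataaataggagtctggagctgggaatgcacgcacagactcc

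The *Cxcl10* window held 1 interferon-response type match, which began 213 bases before the start, and 1 NF-kappaB type match, which began 159 bases before it, and these did not overlap. In the *Cxcl1* window 2 NF-kappaB type matches, on opposite strands and beginning 71 and 70 bases before the start, overlapped in 1 run of capitals. The *Cxcl13* window held neither sequence of letters. Of the 55 genes of the family, 42 had a window in the RefSeq table. The interferon-response type motif was found in 3 of them (7.14%), *Ccl19*, *Cxcl10* and *Cxcl14*, and in 978 of 32851 windows of all genes (2.98%). The NF-kappaB type motif was found in 5 (11.9%), *Ccl1*, *Ccr3*, *Cxcl1*, *Cxcl10* and *Cxcl2*, and in 397 of all windows (1.21%). The family shares count genes and the others count windows, so they are not on the same unit. These matches describe letters in a window and not binding.

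Much of the family gave no signal above background in these glomeruli. A probe is called detected on an array where no more than 0.05 of the negative controls on it reached the brightness of the probe, a share known as the detection p-value. By that threshold 43 of the 70 probes, for 32 genes, were not detected on any of the 8 arrays, and their normalised log2 signals lay between 4.35 and 5.43. Among these genes were *Ccl2*, the main monocyte attractant, its receptor gene *Ccr2*, the chemokine receptors of T cells *Ccr7* and *Cxcr3*, *Cxcl5* and *Cxcl11*. A probe that was not detected does not show that its transcript was absent. *Cxcl12* had such probes beside others detected on all 8 arrays. The 27 probes detected on at least 1 array belonged to 23 genes and made up 38.6% of the family's probes, against 58.2% of all probes. Detection on all 8 arrays was reached by 12 probes (17.1%, against 36.9% of all probes), for *Cxcl1*, *Cxcl10*, *Cxcl12*, *Cxcl13*, *Cxcl16*, *Cx3cl1*, *Ccl27*, *Ccbp2* and *Ccrl2*. These 9 genes comprise 7 ligands and 2 atypical or scavenging receptors, and no G protein-coupled signalling receptor of the family was detected on every array.

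The number of family probes detected was 15, 17, 14 and 17 in *Cd151*+/+ mice 1 to 4 and 21, 19, 19 and 18 in *Cd151*-/- mice 1 to 4. Every *Cd151*-/- array was thus above every *Cd151*+/+ array, whereas the number of all probes detected overlapped (11291 to 12270 and 11317 to 12359). At a stricter detection p-value of 0.01, a threshold added after the data were seen, the counts were 13, 14, 13 and 14 and then 13, 14, 15 and 14, and the mean difference went from 3.5 to 0.5 probes. Of the 27 probes, 6 were detected only in *Cd151*-/- mice and 1, for *Ccr6*, only in *Cd151*+/+ mice. A further 5 were detected in both genotypes but on more *Cd151*-/- arrays, and 15 on equal numbers. Of all 5472 probes detected on 1 to 7 arrays, 2390 were detected on more *Cd151*-/- arrays and 1945 on more *Cd151*+/+ arrays.

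**Figure D1:**
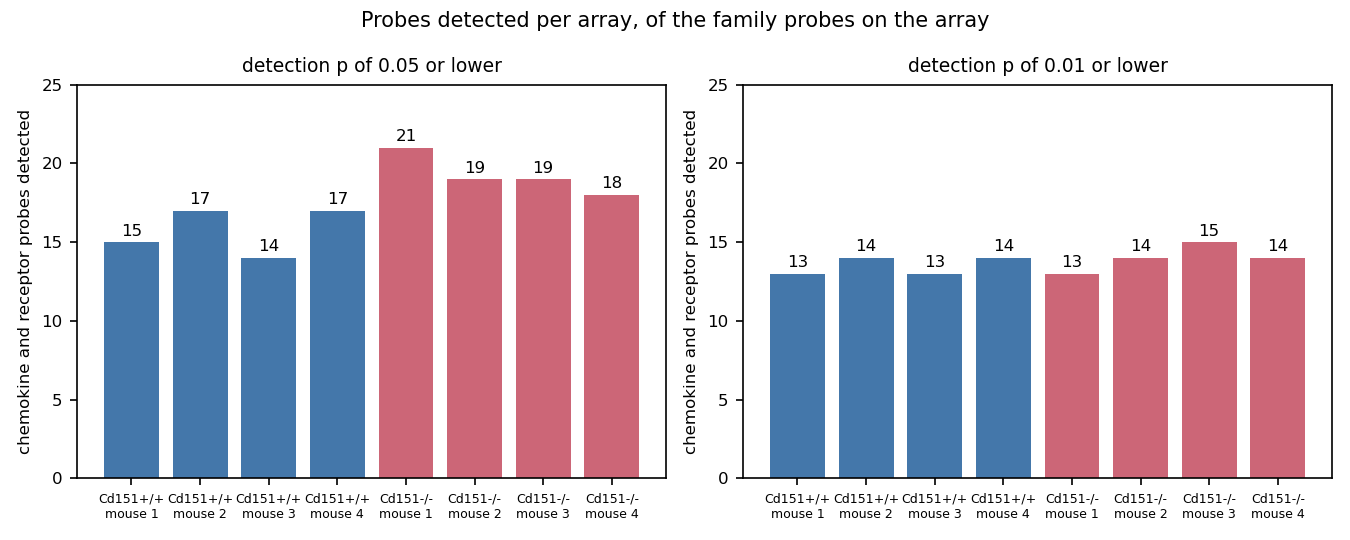
Number of the 70 chemokine and receptor probes detected on each array (bars, from 0), at a detection p-value threshold of 0.05 on the left and of 0.01 on the right. The 4 *Cd151*-/- arrays lie between 18 and 21 and the 4 *Cd151*+/+ arrays between 14 and 17 on the left, and the genotypes overlap between 13 and 15 on the right.

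No member of the family passed the adjusted threshold between the genotypes. Signals were corrected for background and normalised by quantiles in limma, differences are *Cd151*-/- minus *Cd151*+/+ on the log2 scale, and p-values were adjusted by Benjamini-Hochberg over all 14967 probes tested. Of the 27 tested family probes, 0 had a limma adjusted p below 0.05 (smallest 0.918), against 5 of all probes tested (0.0334%). At an unadjusted limma p below 0.05, 1 family probe was higher in *Cd151*-/- mice, that of *Cxcl13*, and 0 were lower, against 4.30% of all tested probes, of which 1.69% were higher and 2.61% lower. In 0 of the 27 probes were the genotypes without overlap, against 2.31% of all tested probes. The differences ran from -0.49 for *Cxcr4* to 1.38 for *Cxcl13*, with 16 probes above 0 and 11 below it and a median of 0.03, against -0.01 for all tested probes. The 12 probes detected on all arrays had a median of -0.15, with 4 above 0, and the 15 detected on 1 to 7 arrays a median of 0.31, with 12 above 0. Over all tested probes the medians were -0.03 for those detected on 8 arrays (46.5% above 0) and 0.03 for those detected on 1 to 7 (53.7% above 0). A weak probe could enter the test through the genotype in which it was higher, so the median of the 15 does not bear on a shift of the family. The median of the 12 is a description only, since no test of the set was run.

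**Figure D2:**
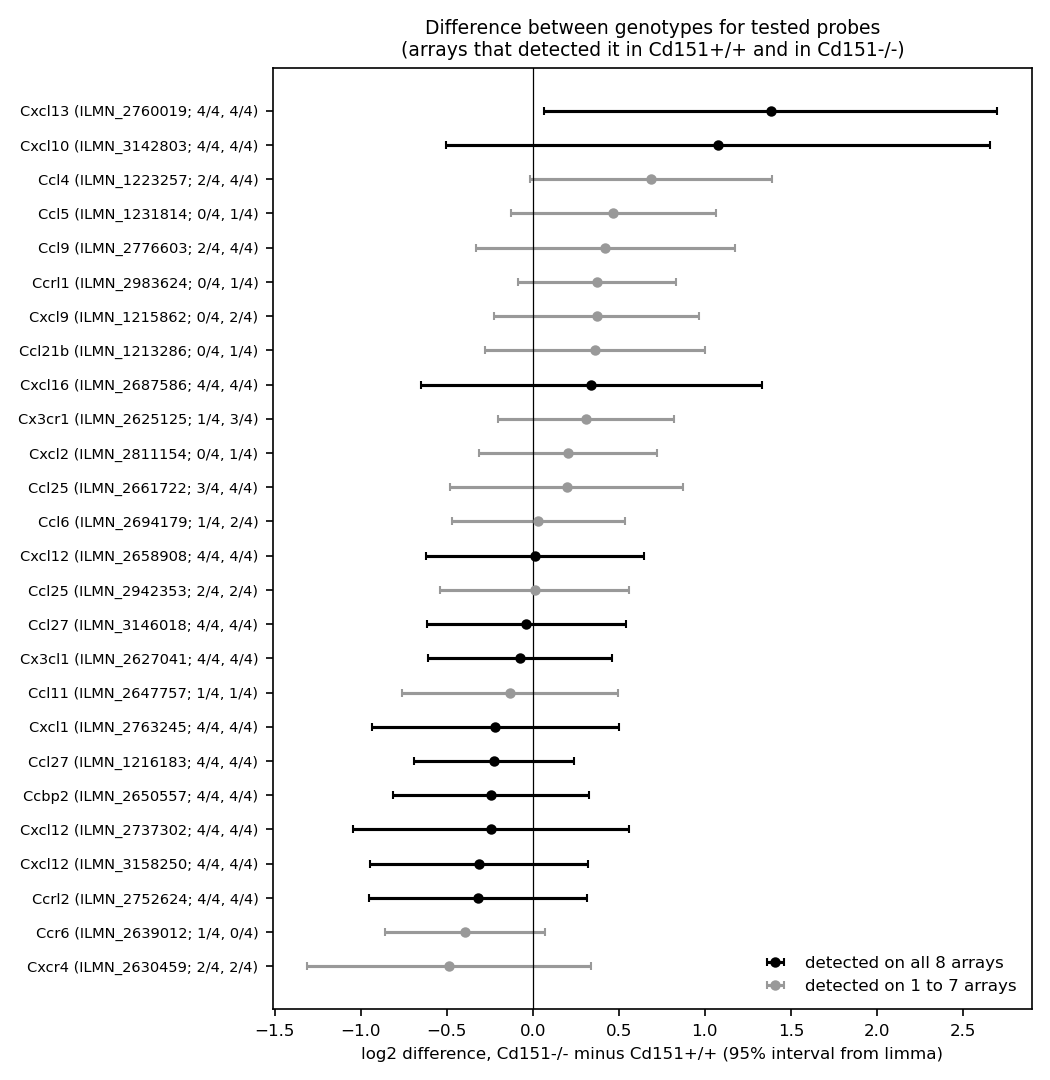
Difference in normalised log2 signal, *Cd151*-/- minus *Cd151*+/+, for the tested probes (points, with the 95% interval from limma), with 1 of the 27 left out. Black marks probes detected on all 8 arrays and grey those detected on 1 to 7 arrays, and the interval of *Cxcl13* is the only one that does not include 0.

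*Cxcl13*, a B cell attractant made in lymphoid follicles, was the member with the highest difference. Its normalised log2 signals were 8.47, 7.35, 8.49 and 9.33 in *Cd151*+/+ mice 1 to 4 and 10.60, 10.91, 9.66 and 8.00 in *Cd151*-/- mice 1 to 4. *Cd151*-/- mice 1, 2 and 3 were above every *Cd151*+/+ mouse, and *Cd151*-/- mouse 4 was below 3 of them. The means were 8.41 ± 0.81 and 9.79 ± 1.31 (SD, n = 4 each), a difference of 1.38 with a standard error of 0.60 and a 95% interval of 0.06 to 2.70, or 2.61-fold. The limma p was 0.0414 (adjusted 0.918), and the exact two-sided permutation test gave p = 0.171, where 0.0286 is the smallest p that 70 relabelings allow. The arrays formed 2 sets that differed in background signal, each with 2 mice of each genotype. The difference was 0.92 in the lower set, where the genotypes overlapped, and 1.85 in the higher set. With so few mice in each set these values are a description only. Without *Cd151*-/- mouse 4 the difference over all remaining mice was 1.97 (limma adjusted p = 0.933), and without *Cd151*-/- mouse 2 it was 1.02.

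Of the CXC chemokines that interferon induces, *Cxcl10* and *Cxcl9* had their highest values in different *Cd151*-/- mice. *Cxcl10*, which attracts activated T cells and NK cells, was measured at 7.50, 6.70, 5.90 and 6.30 in *Cd151*+/+ mice and at 7.83, 5.82, 7.08 and 9.98 in *Cd151*-/- mice. *Cd151*-/- mouse 4 was far above the other 7 mice, while *Cd151*-/- mouse 2 was the lowest of all. The difference was 1.08 ± 0.72 (SE), with an interval of -0.50 to 2.66 (limma adjusted p = 0.918, exact permutation p = 0.343), and it was 0.31 without *Cd151*-/- mouse 4 and 1.69 without *Cd151*-/- mouse 2 (limma adjusted p = 0.817). *Cxcl9*, which binds the same receptor, was detected in no *Cd151*+/+ mouse and in 2 *Cd151*-/- mice, at 4.98, 4.77, 4.92 and 4.85 and at 5.57, 4.74, 5.84 and 4.85. Its higher values were those of *Cd151*-/- mice 1 and 3, so the mouse with the highest *Cxcl10* was not among them. *Cxcl11*, the remaining ligand of that receptor, was not detected.

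Both membrane-anchored chemokines were detected on every array. *Cxcl16*, a scavenger receptor and ligand for activated T cells, was measured at 8.97, 9.02, 8.57 and 9.27 in *Cd151*+/+ mice and at 9.14, 8.17, 9.12 and 10.75 in *Cd151*-/- mice. *Cd151*-/- mouse 4 again had the highest value and *Cd151*-/- mouse 2 the lowest. The difference of 0.34 ± 0.45 (SE, limma adjusted p = 0.920, exact permutation p = 0.686) was -0.15 without *Cd151*-/- mouse 4. *Cx3cl1*, or fractalkine, an adhesion molecule of endothelium for monocytes, lay at 10.03, 10.04, 10.24 and 9.72 and at 10.37, 9.97, 9.97 and 9.43. Its values overlapped throughout, and the difference was -0.07, with an interval of -0.61 to 0.46 (limma adjusted p = 0.962, exact permutation p = 0.743).

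**Figure D3:**
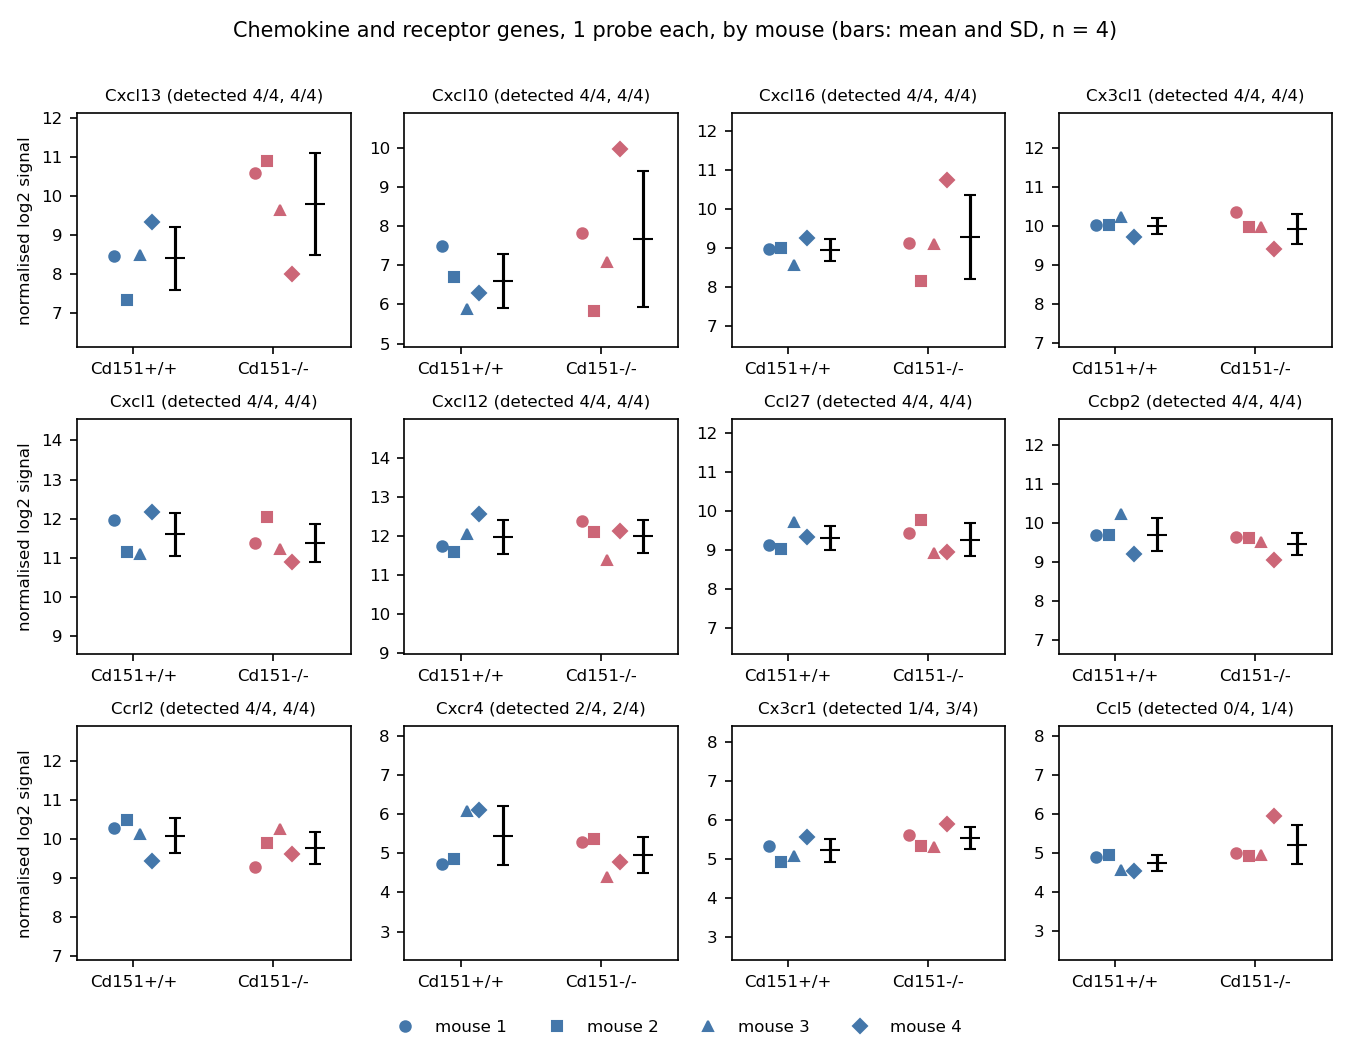
Normalised log2 signal of 12 chemokine and receptor genes, 1 probe each, in every mouse (points, shaped by mouse number), with the mean and SD of each genotype (bars, n = 4) and the arrays that detected the probe given as *Cd151*+/+ then *Cd151*-/-. The genotypes overlap in all 12 panels. *Cd151*-/- mouse 4 is the highest of 8 mice for *Cxcl10*, *Cxcl16*, *Ccl5* and *Cx3cr1* but not for *Cxcl13*, and it is the lowest for *Cxcl1*, *Cx3cl1* and *Ccbp2*.

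Of the 4 CXC chemokines directed at neutrophils, *Cxcl1* was detected on every array and *Cxcl2* on 1. *Cxcl1* was measured at 11.96, 11.16, 11.10 and 12.18 in *Cd151*+/+ mice and at 11.37, 12.05, 11.22 and 10.89 in *Cd151*-/- mice. The genotypes overlapped over most of their range, and the difference was -0.22 with an interval of -0.94 to 0.50 (limma adjusted p = 0.923, exact permutation p = 0.629). *Cxcl2* was detected only in *Cd151*-/- mouse 4, at 5.49, and lay between 4.52 and 4.81 in the other 7 mice.

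Among the chemokines of healthy tissue other than *Cxcl13*, no tested probe had an interval that left out 0. *Cxcl12*, which podocytes make in the developing glomerulus and which acts through *Cxcr4*, had 5 probes, of which 3 were detected on all arrays. At its brightest probe the values were 11.73, 11.58, 12.04 and 12.57 in *Cd151*+/+ mice and 12.37, 12.09, 11.39 and 12.12 in *Cd151*-/- mice. The genotypes covered the same range, with a difference of 0.01 and an interval of -0.62 to 0.65 (limma adjusted p = 0.996), and the other detected probes went the other way, at -0.31 and -0.24. *Ccl27*, an epithelial chemokine, was measured at 9.12, 9.02, 9.72 and 9.34 and at 9.43, 9.76, 8.91 and 8.94 at its brighter probe. The 4 higher values were those of the 4 arrays with the higher background, *Cd151*+/+ mice 3 and 4 and *Cd151*-/- mice 1 and 2. The difference was -0.04 (interval -0.62 to 0.54), against -0.22 at the dimmer probe. Of the other genes of this kind, *Ccl25* and *Ccl21b* were detected on some arrays, with 1 of 2 *Ccl25* probes on 7 arrays. *Ccl27* and the *Ccl21* genes exist in near-identical copies in the mouse, so their signals cannot be assigned to 1 copy.

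The inflammatory CC chemokines were at or near background. Of 13 such genes 5 were tested, none on all arrays, with 4 differences above 0 and 1 below it, and none at an unadjusted limma p below 0.05. *Ccl4*, an attractant made by macrophages and T cells, was singled out after its values were seen. Of its 2 probes 1 was detected on no array, with means of 4.77 in *Cd151*+/+ and 4.69 in *Cd151*-/- mice. The other was detected in 2 *Cd151*+/+ and all 4 *Cd151*-/- mice, at 5.08, 5.68, 5.68 and 4.96 and at 5.91, 5.87, 6.88 and 5.48. *Cd151*-/- mice 1, 2 and 3 were above every *Cd151*+/+ mouse, with a difference of 0.69 ± 0.32 (SE, limma p = 0.0542, adjusted 0.918, exact permutation p = 0.114). *Ccl5*, a T cell and monocyte attractant, was detected only in *Cd151*-/- mouse 4. Its values were 4.90, 4.95, 4.58 and 4.55 and then 5.02, 4.92, 4.96 and 5.96, with limma p = 0.110 (adjusted 0.918) and an exact permutation p of 0.0571. No fold is given for *Ccl5*, since the mean of the *Cd151*-/- mice did not exceed the lowest detected signals of the *Cd151*+/+ arrays. Of the other genes, *Ccl9* was detected in 2 *Cd151*+/+ and 4 *Cd151*-/- mice with a difference of 0.42, and *Ccl6* and *Ccl11* had differences of 0.03 and -0.13.

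Of the 15 receptor genes outside the atypical group, 4 were detected on any array. *Cxcr4*, the receptor of *Cxcl12*, was detected in 2 mice of each genotype, at 4.72, 4.87, 6.09 and 6.12 in *Cd151*+/+ mice and at 5.29, 5.37, 4.40 and 4.78 in *Cd151*-/- mice. The 4 higher values were those of the 4 arrays with the higher background, *Cd151*+/+ mice 3 and 4 and *Cd151*-/- mice 1 and 2. The difference was -0.49 ± 0.37 (SE, limma adjusted p = 0.918, exact permutation p = 0.314), at -0.77 within that set and -0.20 within the other, and with the set as a block the limma adjusted p was 0.402. *Cx3cr1*, the monocyte and macrophage receptor of *Cx3cl1*, was detected in 1 *Cd151*+/+ and 3 *Cd151*-/- mice. Its values of 5.33, 4.92, 5.07 and 5.57 and of 5.60, 5.34, 5.30 and 5.89 overlapped, with a difference of 0.31 and an interval of -0.20 to 0.82 (limma adjusted p = 0.918, exact permutation p = 0.143). *Ccr6* was detected only in 1 *Cd151*+/+ mouse.

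All 3 atypical or scavenging receptors were tested. *Ccbp2*, a scavenger of inflammatory CC chemokines, was measured at 9.68, 9.68, 10.23 and 9.19 in *Cd151*+/+ mice and at 9.64, 9.62, 9.51 and 9.05 in *Cd151*-/- mice. The *Cd151*-/- values lay within the lower part of the *Cd151*+/+ range or just under it, with a difference of -0.24 and an interval of -0.81 to 0.33 (limma adjusted p = 0.918, exact permutation p = 0.314). *Ccrl2*, which presents the leukocyte attractant chemerin, was measured at 10.27, 10.48, 10.11 and 9.43 and at 9.29, 9.90, 10.24 and 9.60. *Cd151*+/+ mouse 4 was low among its group, and the difference was -0.32, with an interval of -0.95 to 0.32 (limma adjusted p = 0.918, exact permutation p = 0.286). *Ccrl1*, which takes up homeostatic chemokines, was detected on 1 *Cd151*-/- array only.

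Set beside their receptors, the ligands detected on every array mostly had no partner detected to the same extent. Several receptors are listed on the array under older symbols that the selection by name does not reach, and these were looked up after the data were seen. *Cxcl10* and *Cxcl16* act through *Cxcr3* and *Cxcr6*, which were not detected, and the receptors of *Cxcl1* and *Ccl27*, listed as *Il8rb* and *Gpr2*, were not detected either. This holds for the probes on the array and does not show that the receptor transcripts were absent. The receptor of *Cxcl13*, listed as *Blr1*, was detected on 1 *Cd151*+/+ and 1 *Cd151*-/- array at 1 of its 3 probes and on 1 *Cd151*-/- array at another. The atypical receptor of *Cxcl12*, listed as *Cmkor1*, was detected on 7 arrays. Its values were 6.35, 5.57, 5.61 and 6.66 in *Cd151*+/+ mice and 5.41, 6.34, 6.28 and 4.51 in *Cd151*-/- mice, and the lowest was that of the array that did not detect it. With these genes added, 31 probes were tested and 1 was again higher and 0 lower at an unadjusted limma p below 0.05.

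The genes that carry the signal inside the cell were mostly measurable. A list of 88 genes of chemokine signalling had 82 on the array, of which 63 were tested and 49 detected on all arrays. At an unadjusted limma p below 0.05, 0 were higher and 1 was lower in *Cd151*-/- mice, against 1.69% and 2.61% of all tested probes, and 0 passed after adjustment. The gene that was lower, *Rac1*, encodes a GTPase that drives actin at the leading edge of moving cells and in podocytes. Its values were 10.94, 11.00, 10.58 and 10.61 in *Cd151*+/+ mice and 9.73, 10.03, 10.81 and 9.61 in *Cd151*-/- mice. *Cd151*-/- mouse 3 lay within the *Cd151*+/+ range and the other 3 below it, with a difference of -0.74 ± 0.28 (SE, limma p = 0.0238, adjusted 0.918, exact permutation p = 0.0857). Of the 63 differences 18 were above 0 and 45 below it, with a median of -0.15, against -0.01 for all tested probes. All 7 tested genes for G proteins and their regulators were below 0, with a median of -0.39, and none reached an unadjusted limma p of 0.05.

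Markers of the leukocytes that chemokines attract were measured in part. Of 8 leukocyte markers 5 were tested and 3 detected on all arrays, and of 10 macrophage markers 6 were tested and 4 detected on all arrays, with differences on both sides of 0. The genotypes did not overlap in 1 tested leukocyte marker and in 0 macrophage markers, against 2.31% of all tested probes. Markers not detected on any array were *Ptprc*, *Fcer1g* and *Cd53* of the leukocyte list, *Adgre1*, *C1qb*, *C1qc* and *Itgam* of the macrophage list, *Cd8a* and *Trat1* of the T or NK cell list and *Cd79a* of the B cell list. The summed normalised signal of 8 leukocyte markers was 1107 to 1672 in *Cd151*+/+ and 1149 to 1386 in *Cd151*-/- mice, and that of 10 macrophage markers 2604 to 4735 and 2068 to 4126. Of 5 neutrophil markers 4 were tested and 1 was detected on all arrays, with 1 difference above 0 and 3 below it. Their sum was 233 to 603 in *Cd151*+/+ and 178 to 453 in *Cd151*-/- mice. B cells are the cells that *Cxcl13* attracts, and the sum of 4 B cell markers was 111 to 166 and 95.4 to 151. Of these 4 markers 0 were detected on all arrays, and of 8 T or NK cell markers 1 was. Background signal thus makes up part of both sums. The sum of the 8 T or NK cell markers was 328 to 414 and 242 to 326. The *Cd151*-/- mice were below the *Cd151*+/+ mice, but *Cd151*+/+ mouse 1 (328.0) and *Cd151*-/- mouse 3 (326.2) nearly met. Of the 6 tested genes in that list 5 were below 0, and *Cd3d*, a chain of the T cell receptor complex, was detected on 4 *Cd151*+/+ arrays and 1 *Cd151*-/- array with a difference of -0.79 (limma p = 0.00941, adjusted 0.918, exact permutation p = 0.0286). The part of these cells in the values of the chemokines was not tested.

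The highest values of *Cxcl10*, *Cxcl16*, *Ccl5*, *Cxcl2*, *Cx3cr1* and *Ccrl1* were found in *Cd151*-/- mouse 4. The same mouse had the lowest of all values of *Cxcl1* (10.89), *Cx3cl1* (9.43), *Ccbp2* (9.05) and *Ccr6* (4.70). Its summed signal of 7 proximal tubule markers was the highest, 71654, against 18935 to 58116 in *Cd151*+/+ mice and 38317 to 67864 in the other *Cd151*-/- mice. Its sum of 5 loop and distal tubule markers was the lowest, 15054, against 22046 to 44060 in *Cd151*+/+ mice. All 7 of the proximal tubule markers had differences above 0, with a median of 0.64. *Kap*, an androgen-regulated gene of the proximal tubule, was higher by 1.38 at an unadjusted limma p of 0.0337 (adjusted 0.918, exact permutation p = 0.0857). Of 4 tested loop and distal tubule markers 3 were below 0, with a median of -0.33. The *Cxcl13* value of *Cd151*-/- mouse 4 was the lowest among the *Cd151*-/- mice. The part of the proximal or distal tubule markers in these values was not tested. Defining markers of the glomerulus were present on all arrays, with 4 podocyte markers at 56757 to 61075 in *Cd151*+/+ and 46609 to 61976 in *Cd151*-/- mice and 6 endothelial markers at 33272 to 41618 and 21475 to 41695. All 4 tested podocyte markers (median -0.25) and all 6 endothelial markers (median -0.39) had differences below 0. Of 5 mesangial and smooth muscle markers 3 were below 0 and 2 above it (median -0.35). Their summed signal was 16365 to 22387 in *Cd151*+/+ and 15403 to 25866 in *Cd151*-/- mice. That sum was higher in *Cd151*-/- mice 1, 2 and 3 than in every *Cd151*+/+ mouse. The part of podocytes, endothelium and mesangium in the values of the family was not tested. The 3 *Cd151* probes, at means of 11.80 to 14.37 in *Cd151*+/+ mice, were detected in all 4 of them and in no *Cd151*-/- mouse, which follows the labels.

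**Figure D4:**
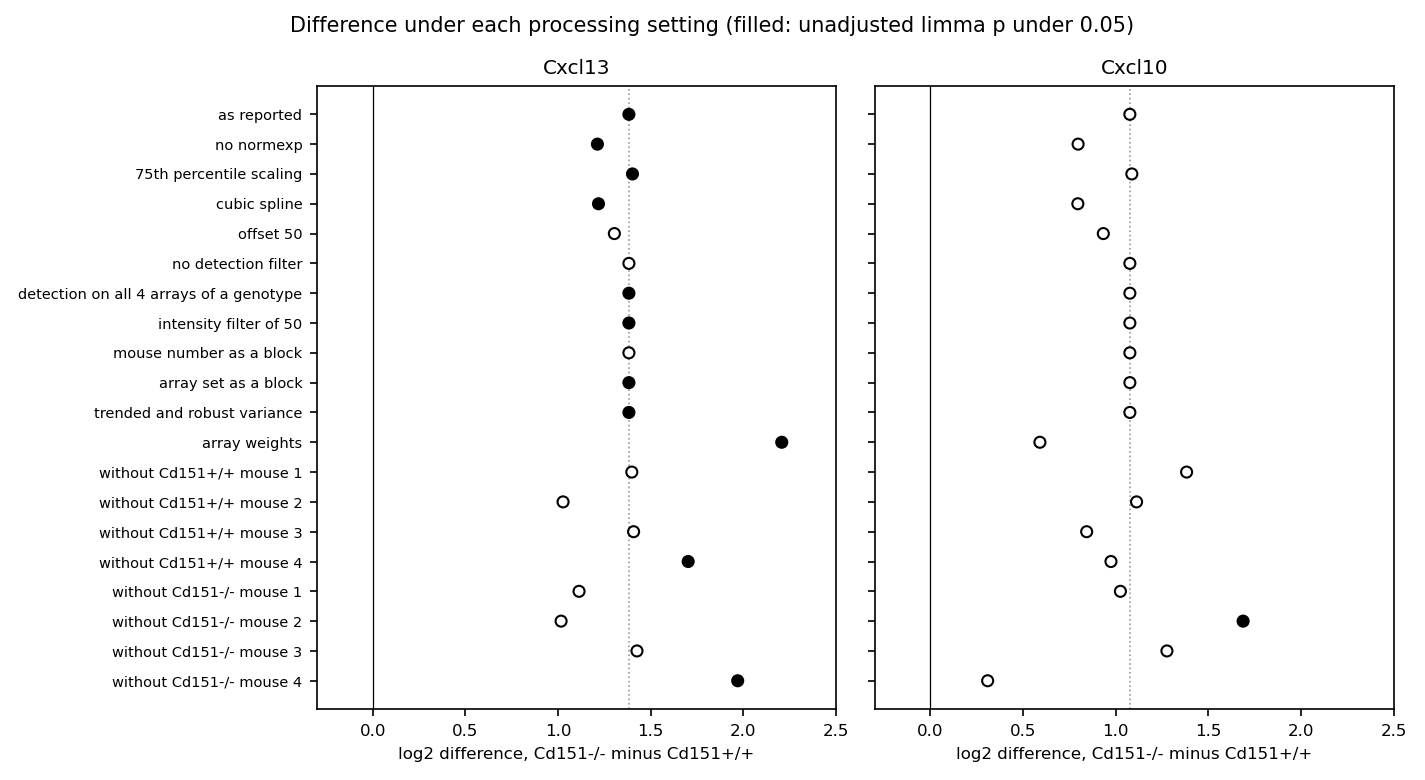
Difference in normalised log2 signal, *Cd151*-/- minus *Cd151*+/+, of *Cxcl13* (left) and *Cxcl10* (right) as reported and under each other processing setting, with filled points where the unadjusted limma p was below 0.05 and a dotted line at the value as reported. *Cxcl13* runs from 1.02 to 2.21 and *Cxcl10* from 0.31 to 1.69, all above 0.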

How the data were processed

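The authors read amplified, biotin-labelled RNA of each mouse on an Illumina BeadArray Reader and deposited the signal intensity of each probe, the mean brightness of its beads, with neither background subtraction nor normalisation. They also deposited a detection p-value per probe and array, whose steps are 1 over 798. The study itself went on with cubic spline values from Genome Studio and with SAM, which was not run here. In R 4.3.3 with limma 3.58.1, array backgrounds were inferred from the detection p-values, neqc (offset 16, quantile) gave log2 values, and lmFit and eBayes compared the genotypes with Benjamini-Hochberg adjustment. The 14967 probes tested had a detection p-value under or at 0.05 on some array. The number of arrays limits the precision. The inferred background was 59.0 to 129 in Cd151+/+ and 68.8 to 135 in Cd151-/- arrays, in a higher and a lower set of 4 arrays, each with 2 mice of each genotype. The columns name no slide, so none was fitted. Spearman correlations between arrays were 0.858 to 0.938 across probes.

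Members, lists and tests were chosen with earlier results of these data known. Member genes were named where the brightest probe had an unadjusted p of 0.05 or lower, groups without overlap or detection on all arrays, or, if tested, from a list of 9 core genes. The alternatives left out normexp, scaled to the 75th percentile, used a re-implemented cubic spline through 15 quantiles or an offset of 50, dropped the detection filter, asked for detection on all 4 arrays of either genotype or for an intensity of 50, took the mouse number or the array set as a block, used array weights or a robust variance with a trend, or left out 1 mouse. On simulated data for Cd151-/- against Cd151+/+, where 200 of 14967 probes differed by 2 on the log2 scale, 84.5% were called by limma and 5.06% of the calls were wrong. Where they differed by 1, 0.5% were called, and with no difference there were 0 calls. The values of 1 member gene, which is among the counts, are not reported here. Motifs were searched in RefSeq windows by their letters on both strands.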

Additional observations from a re-analysis of the deposited data

Results flagged for a closer look

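In *Cd151*-/- mouse 4 the normalised log2 signal of *Ccl5* was 5.96, against 5.02 in the next mouse of its genotype, and this gap took up 0.906 of the range of the 4 *Cd151*-/- mice, above Dixon's critical value for 4 samples. It was the only such value in 54 sets of 4 mice examined, 2 genotypes for each of the 27 tested probes, where chance gives about 1 in 20, or 2.7 here. The probe was detected on that array alone.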

How the results depend on the processing

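With 4 mice per genotype, and with many members near background, differences of the size of most of those given could not be called, and a p above the threshold does not show equal levels. The count of family probes past adjustment was 0 under every alternative run. At an unadjusted limma p below 0.05, the count of higher probes was 0 with an offset of 50, 2 with array weights and 0 to 2 with 1 mouse left out. The count of lower probes was 1 with scaling to the 75th percentile, without the detection filter and with the array set as a block, 3 with array weights, and 0 to 1 with 1 mouse left out. *Cxcl10* passed only without *Cd151*-/- mouse 2 (1.69). *Cxcr4* was the lower probe under the 75th percentile and the array set, and array weights turned its difference from -0.49 to 0.0626. *Cxcl13* was above 0 under every alternative, and as reported its exact permutation p was 0.171, but its unadjusted limma p exceeded 0.05 with an offset of 50 (0.0505), without the detection filter (0.0721) and without *Cd151*+/+ mouse 1, 2 or 3 or *Cd151*-/- mouse 1, 2 or 3 (0.0583 to 0.119), and was lowest with array weights (difference 2.21, adjusted p = 0.0885). Array weights turned *Ccl27* to 0.24 and *Cx3cl1* to 0.12. With 1 mouse left out, *Cxcl12* ran from -0.12 to 0.21, *Ccl27* from -0.21 to 0.10, *Cx3cl1* from -0.22 to 0.10 and *Cxcl16* from -0.15 to 0.72, with *Cxcl16* below 0 only without *Cd151*-/- mouse 4. The difference in detected probes per array was 0.5 at a detection p-value of 0.01, and 2.92 to 3.92 with 1 mouse left out. Of the 63 signalling genes, 1 was higher and 8 lower with the array set as a block (11.3% of all probes were past the threshold in that setting), 5 and 19 with array weights (32.2%), and 0 to 8 were lower with 1 mouse left out, with 8 when *Cd151*-/- mouse 3 was left out, 5 for *Cd151*+/+ mouse 4 and 0 for *Cd151*+/+ mouse 2 and for *Cd151*-/- mice 1 and 4. The cause of these shifts was not tested. The count of all higher probes ranged from 122 (without *Cd151*-/- mouse 1) to 2336 (array weights), with 253 as reported, and that of all lower probes from 195 (without *Cd151*+/+ mouse 1) to 2480, with 390 as reported. The deviations of same-numbered mice correlated at -0.58, -0.40, -0.53 and -0.01. Same-numbered mice were always in opposite background sets, so these correlations cannot show whether the numbers pair the samples. With the mouse number as a replicate block, *Cxcl13* kept its difference of 1.38 at a limma p of 0.0880, and 1 family probe, that of *Ccl4*, was higher.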
